A study of Oryza sativa with 12 samples.

Results

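The peduncle is the uppermost internode of the rice stem, and it carries the panicle. Before heading its lower part holds an intercalary meristem, a zone of dividing cells from which the internode lengthens, and the elongation of its cells pushes the panicle out of the leaf sheath. After heading the stem stops lengthening, and it serves as the path along which sucrose from the leaves and from stored starch reaches the filling grain. Described here is the change across heading in Swarna, a short indica cultivar, as the level of each gene in the non-elongating peduncle after heading (NP) against the elongating peduncle before heading (EP).

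The study raised Swarna and the taller cultivar Pokkali in an open field and sampled peduncles, whose tissue is labelled as the first internode, at both stages. Each of the 4 groups had 3 libraries, 12 in all, made from total RNA with a strand-specific kit. None of the groups carried a transgene, a mutation or a treatment. The deposited table holds 1 value per assembled gene and group, in FPKM, the sequenced fragments per kilobase of transcript scaled to library depth. Since the libraries of a group were merged into that value, neither an error nor a test can be given, and every difference below is a ratio of 2 group values without a replicate check. The deposited table gives no depth, and the read numbers of the libraries were not used here, so no counting error is given. Because a peduncle is a mixture of tissues, fewer cells of a type and less RNA per cell cannot be told apart. The labels could not be checked against markers of leaf sheath, panicle or vascular tissue, since the loci in the table could not be matched to annotated names outside the study's own gene lists.

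A gene was compared if the table had a row naming that locus alone and if it reached 1 FPKM in at least 1 of the 4 groups. This gave 19126 genes out of 53380 loci with such a row and 73781 assembled rows, and 18242 of them reached 1 FPKM in Swarna itself. For each gene 0.5 FPKM was added to both stages, and the log2 of NP over EP was taken, a positive value being higher after heading. Folds given beside FPKM are plain ratios of the 2 deposited values. A gene counted as different when the log2 ratio was at least 1 in size, which is 2-fold.

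In Swarna 5081 genes, 26.6% of those compared, had at least a 2-fold higher level in NP, and 4849 genes, 25.4%, had it in EP. At 4-fold the numbers were 2379 in NP and 1963 in EP, or 12.4% and 10.3%. These percentages are the background for the gene lists below. The middle 50% of genes lay between log2 ratios of -1.01 and 1.08, with a median of 0.03. In Pokkali, compared in the same way and with no sample in common, the middle 50% lay between -0.54 and 0.63, and 15.9% of genes were higher in NP and 14.8% in EP.

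The direction of the Swarna change varied with the higher of a gene's 2 stage values. A gene thus enters a level through the stage where it is high. The shares by level were not taken under other column scalings. Among the 2661 genes whose higher stage was between 2 and 4 FPKM, 15.1% were higher in NP and 40.3% in EP, and their median log2 ratio was -0.62. Between 32 and 64 FPKM, 49.6% were higher in NP and 13.2% in EP. Of the 331 genes that reached 256 FPKM, 71.9% were higher in NP and 9.37% in EP, with a median of 2.05. In Pokkali the corresponding shares for the highest level were 33.3% and 16.1%, and the median reached at most 0.30 at any level.

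**Figure D1:**
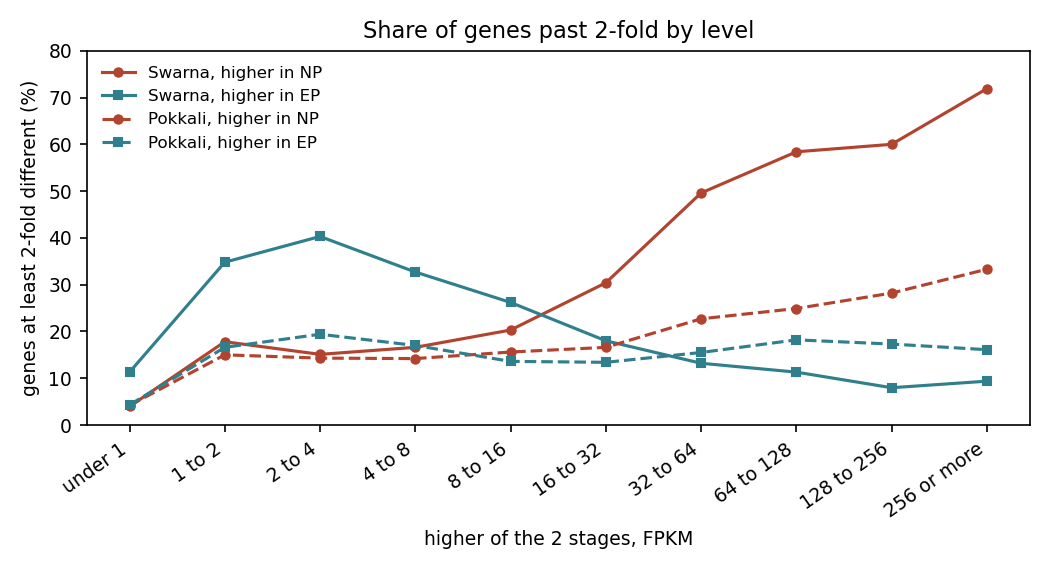
Share of genes at least 2-fold higher in NP (circles) or in EP (squares), in percent, by the higher of the 2 stage values in FPKM, for Swarna (solid lines) and Pokkali (dashed lines). In Swarna the NP share climbs from 15.1% at 2 to 4 FPKM to 71.9% at 256 FPKM or more, while the EP share falls from 40.3% to 9.37%.

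The summed FPKM of the genes compared was 1.85 times larger in NP than in EP in Swarna and 1.2 times in Pokkali. When both Swarna columns were set to the same sum, the median of all genes moved by -0.77, and 2936 genes were higher in NP and 8200 in EP, so that 26.4% of the different genes were higher in NP in place of 51.2%. The scale of the columns thus decides moderate NP-higher calls. The study's lists of cell wall, sugar, starch and hormone genes held 179 genes past 2-fold. All 179 kept their direction under equal sums, and 40 came within 2-fold. Under quantile normalization, which gives both stages the same distribution of values, all 179 kept their direction and 28 came within 2-fold.

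The most abundant transcripts were only in part the same at both stages. The 100 highest genes of NP and the 100 highest of EP had 39 in common. Of the NP 100, 81 passed 2-fold on the NP side and 1 on the EP side. Of the EP 100, 31 were higher in EP and 20 in NP. Over all genes compared, 26.6% were higher in NP and 25.4% in EP. Each 100 was chosen by its level at that stage, so a lean to that stage follows in part from the choice. These counts were not taken under other column scalings. The 100 highest genes held 23.1% of summed FPKM in EP and 31.4% in NP. Among loci without a name in the study's tables and above 0 in both stages, the largest ratios belonged to close neighbours on chromosome 12. LOC_Os12g33150 (20058110 to 20059580) had 0.689 FPKM in EP and 3852 in NP. LOC_Os12g33120 (20042285 to 20043114) had 0.151 FPKM in EP and 1535 in NP. Both were also higher after heading in Pokkali, where they were listed at 0 in EP and had 6.71 and 61.1 FPKM in NP. In the other direction LOC_Os02g41904 had 350 FPKM in EP and 1.46 in NP, and LOC_Os06g12210 had 72.4 and 0.0381.

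**Figure D2:**
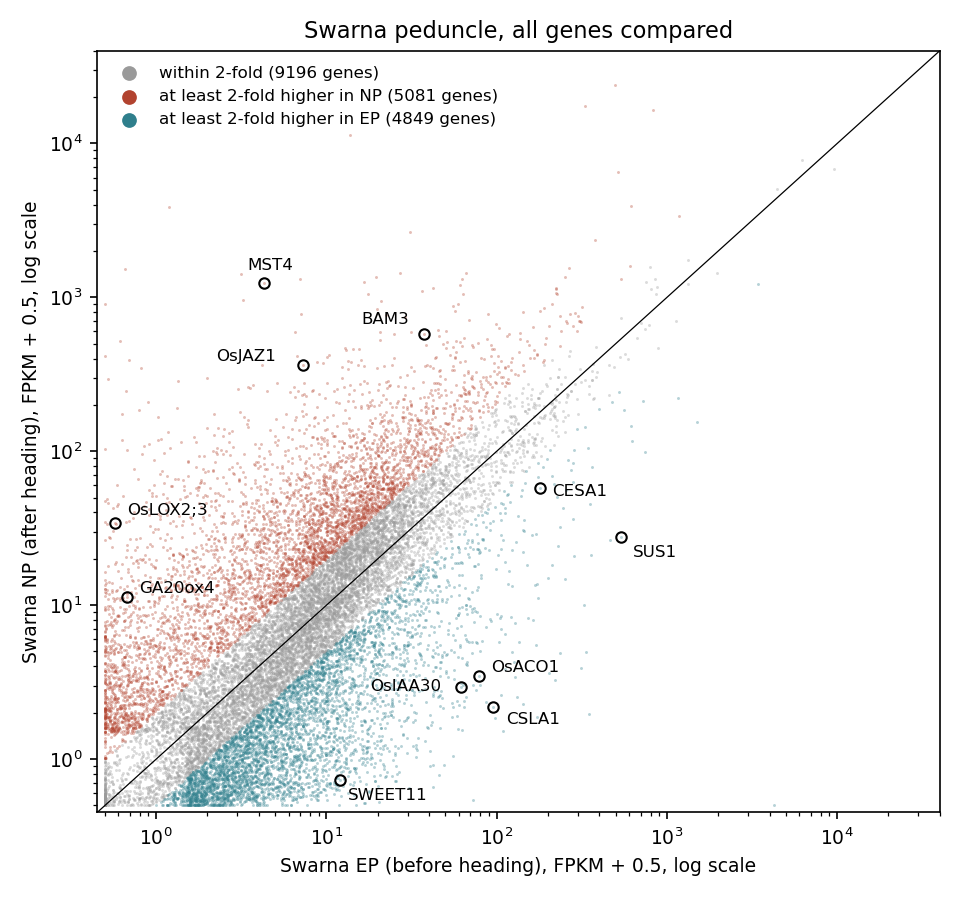
FPKM plus 0.5 of each of the 19126 genes in Swarna EP (horizontal, log scale) and Swarna NP (vertical, log scale), coloured by direction past 2-fold, with equal levels on the diagonal. Circled genes are described in the text, MST4 lying far above the diagonal at 3.81 and 1245 FPKM and SUS1 far below it at 535 and 27.4 FPKM.

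The gene lists used next come from the study's tables of genes that changed in peduncles of 1 or both cultivars. They were chosen by the study on these same samples, so that the number past 2-fold in a list is not independent evidence of a change, and only the direction and size within a list are described. Positions, where given, are those of the assembled locus in the coordinates of the rice annotation (RGAP) version 7 genome, and can be wider than the gene.

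Genes for cell wall synthesis were lower after heading almost throughout. Cellulose is made at the plasma membrane by rosettes of CESA proteins, and the sets that serve growing primary walls and thickening secondary walls differ. All 8 listed CESA genes passed 2-fold with EP as the higher stage, and their summed level went from 811 FPKM in EP to 161 in NP. CESA4 and CESA7, which belong to the secondary wall set of rice, showed the largest ratios of the family. CESA7 had 68.1 FPKM in EP and 5.25 in NP, a 13-fold difference. CESA4 had 54.9 FPKM in EP and 5.94 in NP, 9.23-fold. The primary wall genes CESA1, CESA3 and CESA8 were the most abundant at both stages. CESA1 had 179 FPKM in EP and 57.1 in NP, 3.14-fold. CESA3 had 170 and 28.4 FPKM, 5.98-fold, and CESA8 had 145 and 29.8 FPKM, 4.88-fold. In Pokkali CESA4 stayed at 264 FPKM in EP and 138 in NP, and 6 of the 8 genes were past 2-fold, all of them higher in EP.

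Of the 16 listed cellulose synthase-like (CSL) genes, which make other wall polysaccharides, 13 passed 2-fold with the higher level in EP, and not a single gene did with the higher level in NP. Their median log2 ratio was -2.08, against -2.41 for the CESA genes and 0.03 for all genes. CSLA proteins make mannans. CSLA1 had the largest ratio and the highest EP level of the list, with 95.2 FPKM in EP and 1.67 in NP, 56.9-fold, and in Pokkali it had 56.8 and 0.949 FPKM. CSLA11 had 15.1 FPKM in EP and 0.489 in NP, whereas in Pokkali it had 13 and 6.81 FPKM. CSLF6, the main synthase of mixed-linkage glucan in grasses, was the most abundant CSL gene in NP, with 79.5 FPKM in EP and 21.8 in NP. CSLD4 had 4.64 FPKM in EP and 0.0825 in NP. The genes within 2-fold were CSLA2 with 8.19 and 7 FPKM, CSLH1 with 16.8 and 16 FPKM, and CSLE6, which was under 1 FPKM at both stages. For CSLE2 and CSLA5, which have several assembled rows, adding up the rows brought the log2 ratio from -2.08 to -0.19 and from -1.45 to -0.76, so that their difference depends on the row.

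The lignin list was divided. Of its 11 genes, 5 were higher in NP and 4 in EP, with a median of -0.20. With equal column sums 3 were higher in NP and 5 in EP, and the median became 0.06 after quantile normalization of the 2 stages. The EP-higher members included phenylalanine ammonia-lyases (PAL), the entry enzyme of the phenylpropanoid pathway, and a CCR, which makes lignin aldehydes. The PAL gene LOC_Os02g41630 was the most abundant listed gene of Swarna EP with 738 FPKM, and had 97.7 FPKM in NP. LOC_Os04g43760, also a PAL, had 75.8 and 8.49 FPKM, 8.93-fold. The 4CL genes, which activate the acids of the pathway, were all higher in NP. Adjacent 4CL loci on chromosome 1 had 3.65 FPKM in EP and 17.8 in NP (LOC_Os01g67530), and 0.157 and 1.74 FPKM (LOC_Os01g67540). The CCOMT gene LOC_Os08g38910, for a methyltransferase acting on CoA esters, had 32.8 and 171 FPKM.

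**Figure D3:**
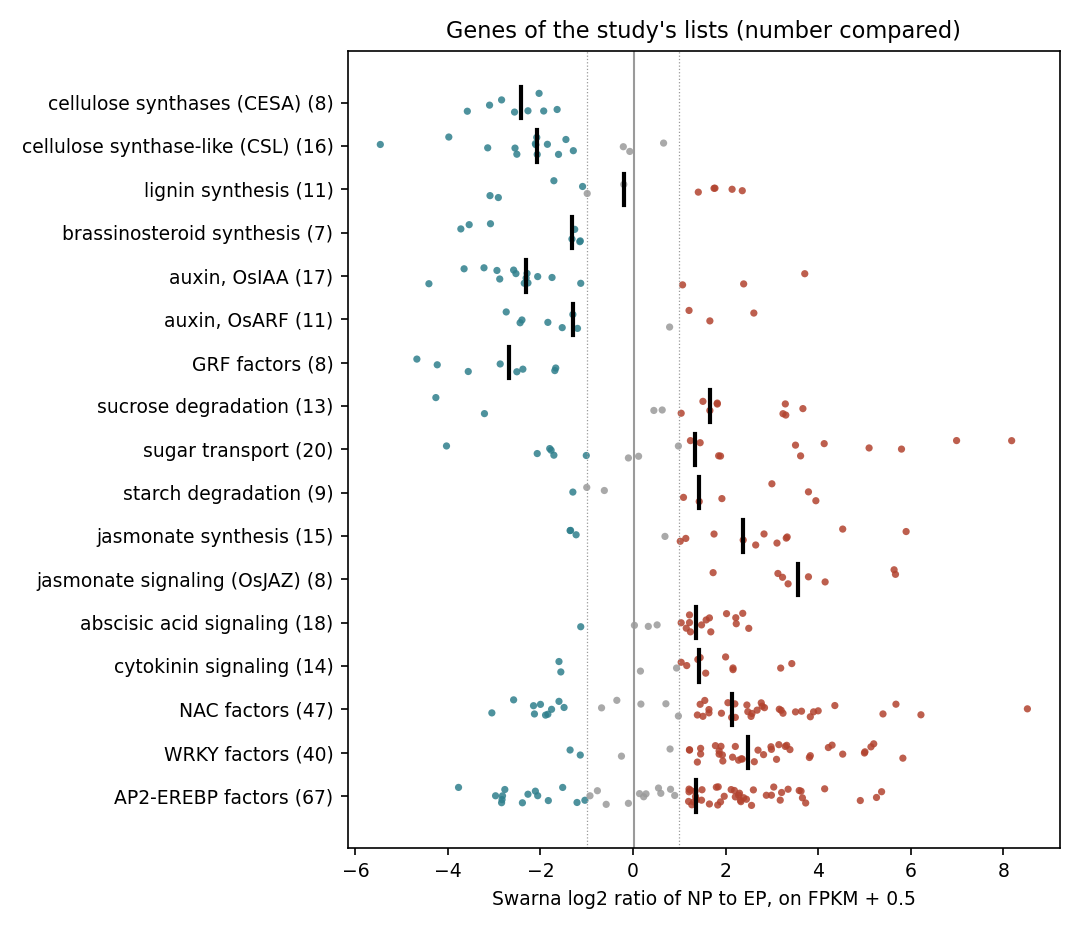
Log2 ratio of NP to EP in Swarna, on FPKM plus 0.5, for each compared gene of 17 lists taken from the study's tables. Points are genes, red where at least 2-fold higher in NP, teal where higher in EP and grey within 2-fold, black bars are list medians, the grey line is the median of all genes and dotted lines mark 2-fold. The CESA, brassinosteroid synthesis and GRF genes all lie to the left and the OsJAZ genes all lie to the right.

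Of the sucrose-cleaving enzymes, SUS1 was much lower after heading and most invertases were higher. Sucrose synthase splits sucrose into UDP-glucose and fructose and feeds wall synthesis, whereas invertases split it into glucose and fructose. SUS1 had 535 FPKM in EP and 27.4 in NP, 19.5-fold lower after heading. SUS4 went the other way with 40.1 and 143 FPKM, and SUS6 had 17.6 and 24.3 FPKM, within 2-fold. Of the 10 invertase genes 8 were higher in NP, and their summed level went from 101 FPKM to 458. CIN1, a cell wall invertase, had 8.88 FPKM in EP and 119 in NP. NIN1, a neutral invertase, had 8.72 and 90.5 FPKM, and NIN2 had 35.3 and 102 FPKM. The vacuolar invertase INV3 had 24.9 FPKM in EP and 79.7 in NP. CIN2, known as GIF1 for its role in grain filling, was the exception, with 5.04 FPKM in EP and 0.0995 in NP. CIN4 lay within 2-fold at 1.03 and 1.87 FPKM. In the whole sucrose list 9 of 13 genes were higher in NP and 2 in EP, against 4 and 2 with equal column sums.

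The largest log2 ratios on FPKM plus 0.5 among genes with a symbol in the study's tables that reached 10 FPKM belonged to sugar transporters of the MST family, which carry monosaccharides across membranes together with protons. MST4 (chromosome 3, 6227228 to 6238297) had 3.81 FPKM in EP and 1245 in NP, a 327-fold difference, and on the log2 scale with 0.5 added only an unnamed listed transcription factor gene stood above it. In Pokkali the same gene had 0.403 and 12 FPKM. MST3 (chromosome 7, 343926 to 353686) had 0.35 FPKM in EP and 107 in NP, 306-fold, against 0.041 and 2.87 FPKM in Pokkali. MST6 was already at 78.8 FPKM in EP and had 286 in NP. The level of both genes after heading in Swarna was far above that in Pokkali. Family members of similar sequence can share fragments, and how the authors' counting divided them is not known.

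SWEET proteins let sugars pass out of cells or into the vacuole along their gradient. Of 11 listed SWEET genes 6 were higher in NP and 2 in EP. SWEET13 had 19.4 FPKM in EP and 349 in NP, SWEET14 had 0.609 and 61.3 FPKM, and SWEET16 had 6.01 and 223 FPKM. SWEET13 was the highest of the family after heading. SWEET4, the most abundant of the family in EP, had 117 and 278 FPKM. SWEET11 had 11.5 FPKM in EP and 0.235 in NP, and SWEET1a had 34.5 and 10.2 FPKM. SWEET15 was equally high at both stages of Swarna, at 77.9 and 84.5 FPKM, while in Pokkali it had 90.9 FPKM in EP and 8.31 in NP. SWEET1b was listed at 0 in EP and had 1.36 FPKM in NP. Other EP-higher members of the transport list included the triose phosphate translocator genes TPT1, with 43.1 and 12 FPKM, and TPT2, with 2.27 and 0.159 FPKM. The tonoplast transporter gene TMT1 had 27.8 and 13.6 FPKM, and its log2 ratio of -1.01 lies at the limit of 2-fold. In the whole transport list 11 of 20 genes were higher in NP and 6 in EP, and with equal column sums 8 and 6, and the summed level went from 465 to 2862 FPKM, of which MST4 made up 1245.

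Starch breakdown genes separated by enzyme. All 4 listed genes of the beta-amylase family, whose active enzymes release maltose from starch, were higher in NP. Together they went from 81.8 to 962 FPKM, and whether each encodes an active enzyme was not tested. BAM3 had 36.9 FPKM in EP and 576 in NP, 15.6-fold. BAM2 had 9.55 and 139 FPKM, BAM9 had 25.8 and 210 FPKM, and BAM5 had 9.47 and 37.1 FPKM. With equal column sums 4 of the 9 listed starch genes were higher in NP and 3 in EP. GWD1, whose product phosphorylates starch at the start of its breakdown, had 28.1 and 60.4 FPKM. Of the 9 listed genes 6 were higher in NP and 1 in EP, the latter being PHO1, for the plastid starch phosphorylase, with 36.2 FPKM in EP and 14.4 in NP. PHO2, for the cytosolic form, had 23.9 and 11.7 FPKM, just short of 2-fold once 0.5 FPKM was added. DPEI, for the disproportionating enzyme, had 21.9 and 14 FPKM. In Pokkali these 3 genes were higher after heading, at 74 and 210 FPKM for PHO1, 44.5 and 154 FPKM for PHO2, and 49.3 and 118 FPKM for DPEI. BAM2, BAM3, BAM9 and the phosphorylase genes thus went together in Pokkali and apart in Swarna, a difference between cultivars that was not tested.

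**Figure D4:**
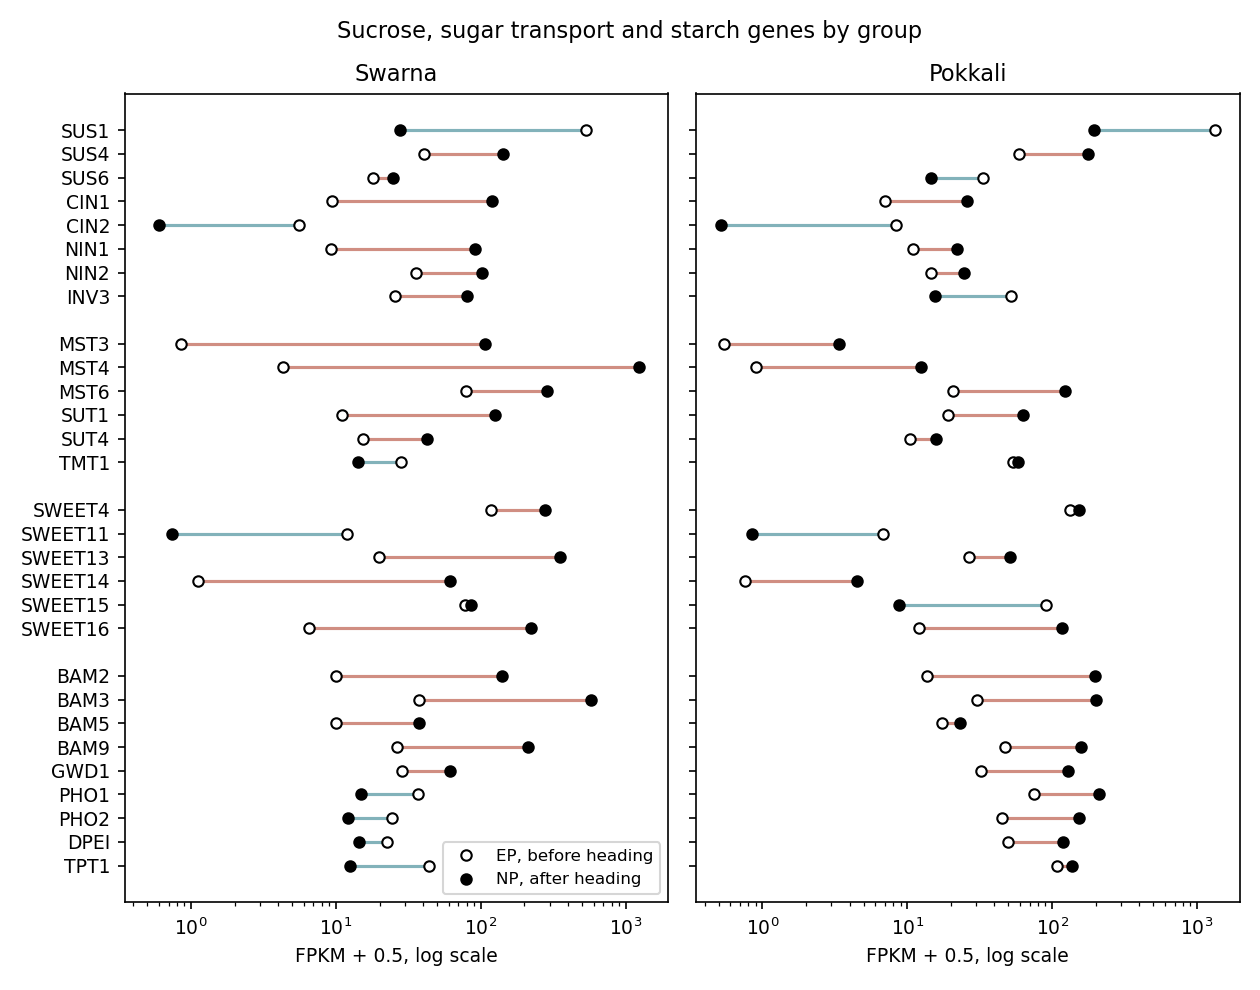
FPKM plus 0.5 on a log scale before heading (open circles) and after heading (filled circles) of genes for sucrose cleavage, sugar transport, SWEET proteins and starch breakdown, in Swarna (left) and Pokkali (right). Joining lines are red where NP is higher and teal where EP is higher. MST4 spans 3.81 to 1245 FPKM in Swarna, and PHO1, PHO2 and DPEI point in opposite directions in the cultivars.

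Brassinosteroids are plant steroids that promote cell elongation. All 7 listed genes of their synthesis, most of them in the sterol steps shared with membrane sterols, were higher in EP, with a summed level of 345 FPKM in EP and 51.5 in NP. OsDWF7 had 75.5 FPKM in EP and 5.25 in NP, 14.4-fold. OsDIM had 91.7 and 7.4 FPKM, 12.4-fold, and OsSMT1 had 116 and 13.2 FPKM, 8.75-fold. In Pokkali OsDIM was 54.1 FPKM after heading, against 108 before. Receptors did not move together, since OsBRI1 had 27.9 and 10.1 FPKM while its relative OsBRL3 had 3.58 and 22.8 FPKM.

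Auxin acts by the removal of Aux/IAA repressors, which are themselves induced by auxin, from ARF transcription factors. Of 17 listed OsIAA genes 14 were higher in EP and 3 in NP, with a median of -2.31 and none within 2-fold. OsIAA30 had 61.5 FPKM in EP and 2.43 in NP, 25.3-fold. It neighbours another AUX/IAA gene, LOC_Os12g40900, which had 24.9 and 0.562 FPKM, the spans on chromosome 12 being 25310812 to 25316268 and 25325549 to 25327567. OsIAA13 and OsIAA17 were the most abundant, with 281 and 83.4 FPKM, and 246 and 42.1 FPKM. The 3 exceptions were OsIAA6 with 0.806 FPKM in EP and 16.6 in NP, OsIAA14 with 4.37 and 25.1 FPKM, and OsIAA7 with 0.437 and 1.46 FPKM. In Pokkali OsIAA14 had 4.74 and 2.61 FPKM. Among 11 OsARF genes 7 were higher in EP and 3 in NP. OsARF12 had 65.8 FPKM in EP and 9.45 in NP, whereas OsARF19 had 13.9 and 87.5 FPKM. Their summed level hardly differed, at 386 and 387 FPKM. OsTIR1;1, an auxin receptor, had 26.3 and 74.5 FPKM.

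Gibberellin drives internode elongation. Of 13 listed genes, 11 passed the filter, 6 of them higher in NP and 4 in EP, with a median of 1.41. Both synthesis genes that passed were higher in NP, while 2 genes of inactivation and 2 of signaling were higher in each stage. The remaining synthesis gene, GA3ox2, stayed under the filter with 0.599 and 0.022 FPKM. GA20ox4, for a late step of synthesis, had 0.174 FPKM in EP and 10.8 in NP, and GA20ox1 had 0.402 and 3.06 FPKM. Among the inactivating enzymes GA2ox3 had 112 FPKM in EP and 18.5 in NP, while GA2ox6 had 2.02 and 9.74 FPKM and EUIL1 had 1.16 and 7.4 FPKM. In Pokkali GA2ox3 had 64 and 94 FPKM. GID1, the gibberellin receptor gene, had 15.7 FPKM in EP and 54.3 in NP. SLR1, the repressor that the receptor removes, had 105 and 35.4 FPKM.

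Most listed jasmonate genes were higher after heading. Jasmonate is made from membrane lipids in the plastid and the peroxisome, and JAZ proteins repress its responses and are induced by it. All 8 listed OsJAZ genes were higher in NP, with a median log2 ratio of 3.57 and a summed level of 246 FPKM in EP and 2004 in NP. OsJAZ1 had 6.8 FPKM in EP and 363 in NP, 53.4-fold. OsJAZ9 had 0.499 and 50.5 FPKM, and OsJAZ2, the most abundant in NP, had 48.1 and 494 FPKM. OsJAZ4 had 38.4 and 364 FPKM. OsJAZ3, which was high already before heading, had 122 and 405 FPKM. OsJAZ6, OsJAZ1 and OsJAZ5 lie next to each other on chromosome 3 between 4232001 and 4250063, and OsJAZ6 had 2.88 and 46.2 FPKM and OsJAZ5 had 23 and 205 FPKM. In Pokkali 7 of the 8 were past 2-fold, all higher in NP, yet OsJAZ1 and OsJAZ9 reached only 3.76 and 1.3 FPKM there.

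Of 15 jasmonate synthesis genes that passed the filter out of 17 listed, 11 were higher in NP and 3 in EP. The lipoxygenase genes OsLOX2;1 and OsLOX2;3, neighbours on chromosome 8 from 25216363 to 25224080 and from 25240906 to 25250279, were nearly silent in EP. OsLOX2;3 had 0.0708 FPKM in EP and 33.6 in NP, and OsLOX2;1 was listed at 0 in EP and had 11 FPKM in NP. In Pokkali neither reached 0.5 FPKM at either stage. The genes of the peroxisomal steps were all higher in NP. OsACX had 25.8 and 264 FPKM, OaAIM1 had 29.4 and 188 FPKM, OsKAT had 23.7 and 171 FPKM, and OsOPR7 had 30.2 and 160 FPKM. OsAOC had 45.8 and 101 FPKM, and OsAOS2 lay within 2-fold at 19.4 and 31.6 FPKM. The EP-higher genes were OsPLA1 with 10.4 and 3.73 FPKM, OsJMT5 with 1.1 and 0.127 FPKM, and OsJAR1;3 with 2.82 and 0.911 FPKM.

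Abscisic acid signaling was also higher after heading, with 14 of 18 genes at least 2-fold higher in NP, 1 in EP and a median of 1.36. The ratios were moderate, and with equal column sums 5 of the 18 were still past 2-fold in NP and 1 in EP. After quantile normalization 8 were higher in NP and 0 in EP. The Pokkali median over the same genes was 0.09, with 5 higher in NP and 2 in EP. All 5 listed OsPP2C genes, for phosphatases that restrain the pathway and are induced by it, were higher in NP, and their summed level went from 246 to 885 FPKM. OsPP2C4 had 83.5 FPKM in EP and 395 in NP, and OsPP2C1 had 76.7 and 242 FPKM. The transcription factor gene OsbZIP23 had 57 and 267 FPKM, and OsbZIP12 had 6.85 and 37.5 FPKM. Of 8 phospholipase D genes 6 were higher in NP, OsPLDα1 being the most abundant with 77.4 and 233 FPKM. The kinase gene SAPK10 was within 2-fold at 15.2 and 19.2 FPKM. For synthesis, LOC_Os03g44380, called OsNCED1 or OsNCED3 in the study's tables and coding for the rate-limiting enzyme, had 91.2 FPKM in EP and 306 in NP. OsABA2, for a later step, had 11 and 3.86 FPKM, and OsABA8OX2, for breakdown, had 35 and 14.6 FPKM.

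Cytokinin and ethylene genes completed the hormone lists. Cytokinin signals pass from histidine kinase receptors through phosphotransfer proteins to response regulators. Of 11 listed response regulator genes (OsRR) 9 were higher in NP and none in EP, and the sum went from 103 to 465 FPKM. Of the whole cytokinin signaling list, 10 of 14 genes were higher in NP, or 5 of 14 with equal column sums. OsRR19 had 17.1 FPKM in EP and 190 in NP, 11.1-fold, and OsRR17, given as OsRR24 in another of the tables, had 7.11 and 68.8 FPKM. The 5 genes listed by the study as ARR-B, the DNA-binding response regulators, were all higher in NP. They overlap with the OsRR genes counted above, so this is not a separate result. The receptor gene OsHK3 had 40 and 119 FPKM, while OsHK4 had 14.4 and 4.42 FPKM. OSIPT3 and OsIPT7, for cytokinin synthesis, had 5.54 and 22.7 FPKM, and 0.192 and 2.99 FPKM. Among the ethylene-forming ACC oxidases, OsACO1 had 77.9 FPKM in EP and 2.95 in NP, OsACO3 had 59.9 and 9.02 FPKM, and OsACO7 had 30.4 and 3.01 FPKM. OsACO2 went the other way, with 21.6 and 137 FPKM, and OsACO5 had 0.677 and 7.68 FPKM. OsACO2 was thus the highest of the listed ACC oxidase genes after heading, in place of OsACO1, and OsACS6, for the preceding enzyme, had 4.65 and 28.3 FPKM.

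The study's table of transcription factor genes held 815 loci, of which 780 passed the filter, 423 being higher in NP and 254 in EP in Swarna, and 266 and 165 in Pokkali. Some families lay mostly on 1 side, and others were divided, such as C3H with 11 higher in NP and 12 in EP and HSF with 6 and 5. GRF genes, which promote cell proliferation in growing organs, were all higher in EP, 8 of 8, and their sum went from 93 to 4.32 FPKM. The GRF gene LOC_Os04g51190 alone had 54.9 FPKM in EP and 1.67 in NP. TCP genes, another growth-related family, were higher in EP in 9 of 13 cases and in NP in 3, LOC_Os02g42380 having 8.52 and 0.169 FPKM. Families of chromatin and nuclear proteins with 6 of 6 (SET) and 5 of 5 (FHA) genes higher in EP were also found, and in Pokkali 1 gene of each was. The bHLH gene LOC_Os02g51320 had 131 FPKM in EP and 2.02 in NP, 65-fold, and the LIM gene LOC_Os12g32620 had 40.1 and 0.628 FPKM, 63.8-fold.

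WRKY genes, a family with known roles in defence, were higher in NP in 36 of 40 cases and in EP in 2, with a median of 2.49, and NAC genes in 32 of 47 cases with 10 higher in EP and a median of 2.13. The NAC gene LOC_Os03g21060 had 0.168 FPKM in EP and 244 in NP, the largest ratio of any listed gene. LOC_Os01g66120, also a NAC gene, had 19.2 and 834 FPKM, and LOC_Os07g37920 had 1.16 and 123 FPKM. In Pokkali LOC_Os01g66120 had 14.3 and 99.9 FPKM. Among WRKY genes LOC_Os01g09100 had 0.442 FPKM in EP and 52.9 in NP, and LOC_Os01g14440 had 4.56 and 162 FPKM. AP2-EREBP genes, the family of ethylene-responsive factors, were higher in NP in 42 of 67 cases and in EP in 14, and with equal column sums in 28 and 17. LOC_Os06g09390 of this family had 195 FPKM in EP and 545 in NP. All 9 listed C2C2-CO-like genes, relatives of a flowering-time regulator, were higher in NP, LOC_Os08g15050 having 3.44 and 76.8 FPKM. All 5 listed RWP-RK genes that passed the filter were higher in NP as well. The HB gene LOC_Os02g43330 had 38.1 and 492 FPKM. A MYB-related gene, LOC_Os05g50340, was listed at 0 in EP and had 47 FPKM in NP, and the MYB gene LOC_Os12g37690 was listed at 0 and had 34.3 FPKM.

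The study also listed 76 genes known from anthers and pollen, sorted by it into those higher at the same stage in both cultivars, so that their direction is given by the choice. Of the 75 that passed the filter, 48 passed 2-fold on the EP side and 26 on the NP side. The EP side held OsUAM3, for an enzyme supplying arabinose to walls, with 123 FPKM in EP and 22.4 in NP, the beta-tubulin gene OsTUB8 with 31.3 and 7.56 FPKM, and LOC_Os03g49600, annotated as a beta-glucosidase, with 285 and 20.5 FPKM. LOC_Os06g43600, annotated as a protease inhibitor or lipid transfer protein, had 109 and 1.03 FPKM, 105-fold. LOC_Os04g34170 had 203 and 3.15 FPKM, and OsFOR1 had 463 and 26.2 FPKM. On the NP side OsNHX1, for a sodium and proton antiporter of the vacuole, had 18.6 FPKM in EP and 128 in NP, the potassium transporter gene OsHAK1 had 0.934 and 20.5 FPKM, and SPDT, for a phosphorus transporter, had 6.02 and 55.8 FPKM. OsNLA1 had 0.701 FPKM in EP and 104 in NP, whereas its Pokkali levels were 1.93 and 5.96 FPKM. LOC_Os04g17100, annotated with a heavy metal-associated domain, was the most abundant listed gene of NP with 1363 FPKM, from 251 in EP.

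Beside Pokkali, the Swarna differences were more numerous and wider. Of the Swarna genes higher in NP, 84.3% leaned the same way in Pokkali, where their median was 0.76 against 1.92 in Swarna. For the genes higher in EP the share was 77.9%, with medians of -0.78 and -1.78. These genes were chosen by their Swarna ratio, so a smaller Pokkali median follows in part from that choice. The Pokkali median of all genes compared was 0.05. The spread over all genes, given above for each cultivar, does not depend on that choice. The 2073 genes higher in NP in both cultivars were 40.8% of the Swarna genes and 68.2% of the Pokkali genes, and 77.2% of them had the larger ratio in Swarna. The 2098 genes higher in EP in both were 43.3% and 74.2%, and 62.2% had the larger ratio in Swarna. Across the 19126 genes the ratios of the cultivars had a Pearson correlation of 0.67, given as a description, since genes are not independent replicates. The summed FPKM of the stages also differed more in Swarna than in Pokkali, 1.85 against 1.2 times, and the part of this in the wider ratios was not tested.

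**Figure D5:**
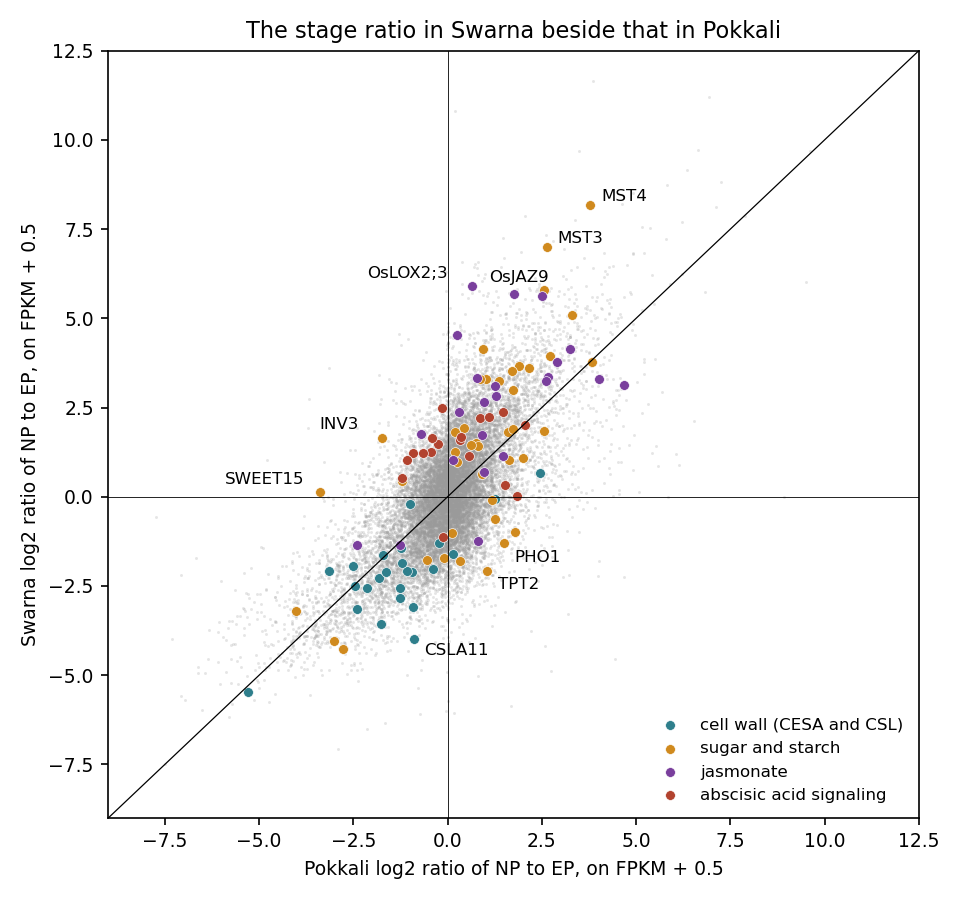
Log2 ratio of NP to EP on FPKM plus 0.5 in Pokkali (horizontal) and Swarna (vertical) for the 19126 genes (grey), with cell wall, sugar and starch, jasmonate and abscisic acid signaling genes coloured, and equal ratios on the diagonal. MST4 stands at 8.18 in Swarna and 3.79 in Pokkali, OsLOX2;3 at 5.90 and 0.64, and PHO1 and TPT2 lie below 0 in Swarna and above 0 in Pokkali.

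Among listed genes with at least 10 FPKM in some group, those whose Swarna ratio lay farthest above their Pokkali ratio included MST4, MST3, OsLOX2;3, OsNLA1, the MYB genes listed at 0 in EP, and the NAC gene LOC_Os07g48450 with 0.192 FPKM in EP and 34.9 in NP. The Pokkali levels of that NAC gene were 0.0206 and 0.179 FPKM. The bZIP gene LOC_Os02g09830 had 0.744 FPKM in EP and 58.8 in NP in Swarna, and 5.33 and 7.94 FPKM in Pokkali. In the opposite sense stood GA2ox3, CSLA11, OsIAA20 and the HSF gene LOC_Os03g53340, which had 14 FPKM in EP and 0.37 in NP in Swarna but only 0.132 and 0.432 FPKM in Pokkali. OsIAA20 was at 13.4 FPKM before heading and 2.24 after it, while Pokkali had 5.96 and 11.4 FPKM.

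Genes that were strongly higher at 1 stage had neighbours of the same kind at shares a little above those of all genes. The difference was not tested. Among 2222 pairs of neighbouring, non-overlapping genes whose first member was at least 4-fold higher in NP, the next gene was so too in 16.9%, beside 12.4% of all genes, and was at least 4-fold higher in EP in 9.68%. For the 1849 pairs starting with a gene 4-fold higher in EP, 13.2% of next genes were 4-fold higher in EP, beside 10.3% of all genes. In these pairs 10.8% of next genes were 4-fold higher in NP. The OsJAZ, OsLOX2 and AUX/IAA neighbours described above are such cases. By chromosome the median ratio ran from -0.20 on chromosome 11, where 21.7% of genes were higher in NP, to 0.10 on chromosome 3.

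The value 0 needs care in these data. Of the genes compared, 254 were listed at 0 in Swarna EP and 144 in Swarna NP, 35 at both. Among those at 0 in EP, 13 had at least 10 FPKM in NP, and among those at 0 in NP, 2 had at least 10 FPKM in EP. No fold was given against such a value, although 124 and 90 of them count among the genes higher in NP and EP. A 0 can also stand for an estimate that failed. Of the genes compared, 4983 had several assembled rows, and for those past 2-fold, 393 of 501 other rows with at least 1 FPKM in Swarna, 78.4%, had a ratio of the same sign.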

How the data were processed

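Peduncle RNA of rice was sequenced with a read length of 100 bp, in 3 libraries for each of Swarna EP, Swarna NP, Pokkali EP and Pokkali NP. The authors filtered reads with the NGSQC Toolkit, aligned them in strand-specific mode to the rice genome (RGAP version 7) with HISAT2 2.1.0, assembled transcripts with StringTie 1.3.3b, merged the assemblies and ran Cuffdiff. The deposited values are FPKM, 1 per assembled gene and group with the 3 libraries combined, and they were used as the authors deposited them. No column without a group was used.

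Rows naming 1 locus were taken, the row with the highest mean over the 4 groups standing for a locus with several. Genes under 1 FPKM in all groups were left out. A constant of 0.5 was added before log2 ratios, and 2-fold was the minimum difference. The deposited table holds no library size, and the study's read numbers were not used here. Among 2483 rows between 0 and 0.05 FPKM in both Swarna groups, the commonest ratio of NP to EP was 1.48. The cause of this ratio was not tested.

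Named genes were, among those named or assigned to a family in the study's tables, the 10 with the largest ratio in each direction at 10 FPKM or more, the 10 with the highest FPKM in each stage, in each list those highest in ratio or FPKM, and the 10 whose ratios differed most between cultivars. Loci without a name were limited to 2 in each direction. Further list members were named for their role after their values were seen. Some listed genes, a few within this rule, are not reported here by name, though they are counted in their list. The genes and lists were chosen with earlier results of these data known. Lists by words in gene descriptions, tissue markers and promoter motifs had been planned and were not used, since the gene reference is of another assembly and shares no identifiers with the table. For the same reason no sequences are shown. Calculations used Python 3.11.15 with numpy 2.4.6 and pandas 2.3.3, and matplotlib 3.10.9 for plots. The code was tested on simulated data. Alternatives were other constants (0.1 and 1), filters, row choices, column scalings and a 4-fold minimum.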

Additional observations from a re-analysis of the deposited data

Results flagged for a closer look

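A few genes were past 2-fold in opposite directions in the cultivars. With 1 value per group the difference was not tested. Of all genes compared, 65 were on the NP side in Swarna but on the EP side in Pokkali, and 131 were the reverse. Genes with a symbol among them were TPT2 (log2 ratio -2.07 in Swarna, 1.05 in Pokkali) and PHO1 (-1.30 and 1.50), which were lower after heading in Swarna. INV3 (1.66 and -1.74) and OsPLDα3 (1.04 and -1.07) were higher after heading in Swarna. For OsPLDα3 the levels before and after heading were 3.95 and 8.66 FPKM in Swarna, against 5.67 and 2.44 FPKM in Pokkali, so both of its ratios lie at the limit of 2-fold.

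Outside the genes compared, 9703 assembled rows carry no locus name, and 1561 of them reached 1 FPKM in Swarna EP or NP. Of these 1561 rows, 465 were past 2-fold on the NP side and 399 on the EP side. Among all genes compared the shares were 26.6% and 25.4%, and these counts are given as a description only.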

How the results depend on the processing

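No paired analysis was possible because the 3 libraries of a group are combined in 1 value, and for the same reason no library could be left out. Under the other constants and the 3 column scalings, the direction of the list medians was kept, except that of lignin (-0.20, and 0.06 under quantile normalization), and so was that of all 179 different genes of the pathway lists. Summed rows were run for the 74 of them with several rows, and these kept their direction, though 3 came within 2-fold. The counts of 5081 genes higher in NP and 4849 in EP moved by over 1.5 times in 3 cases. With a minimum of 10 FPKM in a Swarna group 1516 genes were higher in EP, with equal column sums 2936 were higher in NP and 8200 in EP, and at 4-fold 2379 and 1963. Under constants of 0.1 and 1, no filter, a filter on Swarna alone, summed rows, single rows, the median ratio and quantile normalization, both counts stayed within 1.5 times.

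List medians count as moved when the log2 value shifted by 0.58 or more. Equal column sums moved all 16: CESA -3.29, CSL -2.75, lignin -0.98, sucrose degradation 0.79, starch degradation 0.73, sugar transport 0.47, abscisic acid signaling 0.54, OsIAA -3.06, brassinosteroid synthesis -2.12, cytokinin signaling 0.59, jasmonate synthesis 1.50, jasmonate signaling 2.72, AP2-EREBP 0.60, GRF -3.33, NAC 1.43 and WRKY 1.81. All genes together moved by -0.77 under this setting. Quantile normalization, which shifted the median of all genes by -0.12, moved CESA to -3.25, sucrose degradation to 0.90, brassinosteroid synthesis to -1.95 and jasmonate synthesis to 1.46. It also lowered the NP-higher count of abscisic acid signaling from 14 to 8, sucrose degradation from 9 to 6 and AP2-EREBP from 42 to 35. That of WRKY stayed at 36. A constant of 0.1 moved GRF to -3.82, its genes being near 0 in NP.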
